A study of Mus musculus with 5 samples.

Results

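The genes described here are 38 markers of the naive, formative and primed epiblast and of the primitive endoderm, listed by name and looked up in a deposited table of 12930 gene rows from mouse embryonic stem cells. A row was found for 21 of them, and 19 had a value in every siRNA library. No marker passed the test in any comparison, and the description below therefore rests on the value of each library. The lowest means belonged to TBX3 in siDhx30 and DAB2 in siTfam, and both markers lay below the control in all 4 siRNA libraries. The highest mean belonged to NR5A2 in siDhx30 and rested on 1 library. ESRRB, DPPA4, DNMT3A, OTX2 and ZIC2 lay above the control in both libraries of each siRNA. DNMT3L, TCF7L1, LIN28B and SPARC, like TBX3 and DAB2, lay below it in both libraries of each. Some of these sides rest on log2 ratios close to the control. In siDhx30 replicate 2, ZIC2 was at 0.0041, ESRRB at 0.02 and DAB2 at -0.02, and LIN28B was at -0.0053 in siDhx30 replicate 1. For either siRNA alone, the shares of markers on 1 side of the control were near those of all genes. The share of all genes on 1 side in all 4 libraries was not counted. All 4 ratios use the same control library, so their sides are not independent.

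RNA was sequenced from 5 libraries of the OG2 line, whose strain label reads (CBA/CaJxC57BL/6J) with 129Sv/Jae: 2 were transfected with siRNA against Dhx30 (siDhx30), 2 with siRNA against Tfam (siTfam), and 1 was labelled a negative control (NC). The protocol was the same for all groups. Cells grew for 24 h in N2B27 medium with LIF at 1000 U per ml, the MEK inhibitor PD0325901 at 1 µM and the GSK3 inhibitor CHIR99021 at 3 µM. They were then transfected at 50 nM siRNA and kept for 36 h in medium with bFGF at 12.5 ng per ml, Activin A at 20 ng per ml and 1% knockout serum replacement. All libraries, NC included, were thus harvested during the exit from naive culture, and no library of undifferentiated cells was analysed here. The labels do not state whether replicates were separate cultures. The p-values cover only the variation between the 2 libraries of each siRNA, and that variation could be technical. The variation of NC, with 1 library, was not measured and was assumed to be the same. OG2 is 1 line, and nothing here speaks for other lines.

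Naive embryonic stem cells are held by LIF and by a network of transcription factors that includes ESRRB, TFCP2L1, TBX3 and the KLF proteins. On withdrawal of LIF and the inhibitors, and with FGF and Activin, this network is shut down and the cells pass into a formative and then a primed state marked by OTX2, by de novo DNA methyltransferases and by ZIC2. Primitive endoderm is the alternative fate of the inner cell mass, governed by GATA and SOX factors, and embryonic stem cell cultures can hold a few such cells. Dhx30 encodes an RNA helicase of mitochondrial RNA granules, and Tfam encodes a transcription factor that also packages mitochondrial DNA. In bulk RNA, fewer cells in a state and less RNA per cell cannot be told apart.

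The table holds log2 ratios, 1 column for each siRNA library, with no levels and no NC column. Gene names are written as the table spells them, in capitals. The headings name neither the denominator nor the direction. Of 1574 values that belonged to genes with a missing value in some other library, 1574 were negative as deposited and 0 were positive. A gene kept for its abundance in 1 siRNA library alone, and low in NC, gives this pattern only if the deposited ratio is NC over siRNA. That genes were kept in this way is assumed, since the filter is not given in the sources used here. All signs were turned to siRNA over NC on that assumption, and every direction below depends on it. As a check of the labels, DHX30 lay at -0.40 and -0.20 in the siDhx30 libraries (81.2% of NC; limma adjusted p = 0.998), and TFAM at -0.28 and -0.02 in the siTfam libraries (90.2% of NC; limma adjusted p = 0.987). Neither knockdown passed the test.

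Whether a marker had a row went with the annotation of its transcripts. By state, a row was found for 8 of 17 naive, 10 of 14 formative and primed, and 3 of 7 primitive endoderm markers. The part of expression level was not tested. In GENCODE M21 on GRCm38, transcripts of a protein-coding gene that carry no coding sequence are labelled retained intron or processed transcript, and both kinds are called non-coding transcripts here. Of 12419 protein-coding genes with at least 1 non-coding transcript, 9495 (76.5%) had a row. Of 9503 without one, 48 (0.505%) did. The share was 58.9% with 1 such transcript and 93.5% with 5 or more. The number of coding transcripts did not show the same pattern: among genes with no non-coding transcript but 5 or more coding ones, 3 of 540 (0.556%) had a row, and among genes with 1 coding transcript and at least 1 non-coding one, 71.0% did. Of the 38 markers, all 21 with a row carried a non-coding transcript, and 15 of the 17 without a row carried none.

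**Figure D1:**
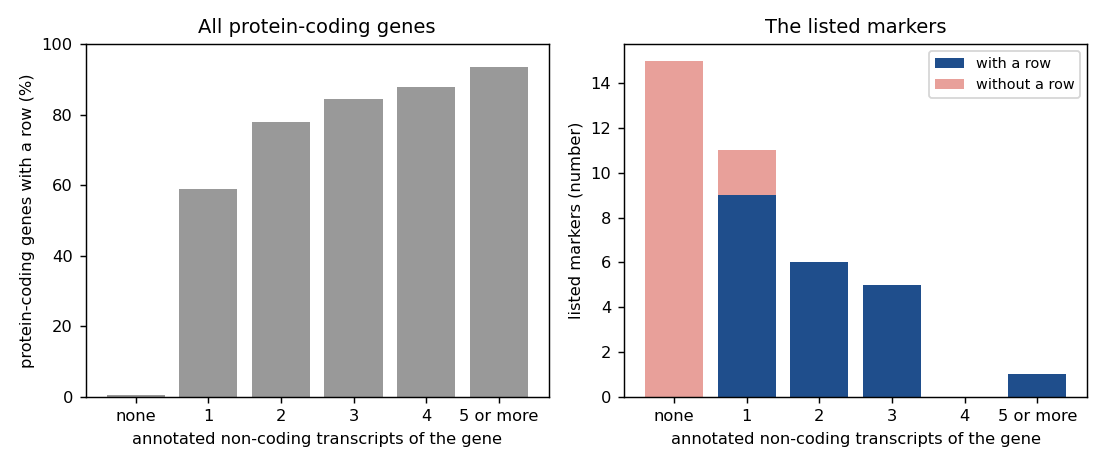
Left, share of all protein-coding genes that have a row in the table (y axis, percent) by the number of annotated retained-intron and processed transcripts (x axis). Right, number of the 38 listed markers with (blue) and without (pink) a row on the same x axis. All 15 markers with no such transcript lack a row, and of the 11 with 1 such transcript, 2 lack one.

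The 17 markers without a row, which are not analysed here, were KLF2, KLF5, PRDM14, NR0B1, SALL1, DPPA2, DPPA3, DPPA5A and IL6ST among 17 naive markers, SOX3, FOXD3, UTF1 and LIN28A among 14 formative and primed markers, and GATA4, SOX17, SOX7 and PDGFRA among 7 primitive endoderm markers. SOX17 and PDGFRA are the 2 that carry a non-coding transcript and still lack a row. For the 15 without such a transcript, the absence of a row therefore cannot be read as absence of expression. For SOX17 and PDGFRA the reason is not known. No source used here states which exons were counted for each row, and whether a value stands for the coding mRNA or for the non-coding transcripts was not tested. In the 21 markers with a row, non-coding transcripts covered between 299 bases (LIFR) and 6093 bases (DNMT3A) of exon, with a median of 1231. Between 7.16% (CDH2) and 100% (ETV5) of those bases also lie in exons of coding transcripts, with a median of 47.3%. Each value below is accordingly the ratio of a gene's row, not a measured level of its protein-coding message.

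The naive transcription factors did not share a direction. TBX3, a T-box factor of the LIF-dependent network (chromosome 5, 119670669 to 119684724, plus strand; 2 retained-intron transcripts and 1 processed transcript), lay at -1.30 and -2.24 in the siDhx30 libraries and at -0.56 and -0.48 in the siTfam libraries. All 4 libraries were below NC, and both siDhx30 libraries were below both siTfam libraries. The siDhx30 mean of -1.77 (SE 0.45, n = 2) equals 29.3% of NC, with a 95% interval of 12.3% to 70.1%, and 0.83% of all tested genes had a lower mean. It did not pass over all genes (limma adjusted p = 0.762). In siTfam the mean was -0.52 (SE 0.45), or 69.9% of NC (29.3% to 167%; limma adjusted p = 0.978). A listed antisense gene, Tbx3os1, shares 115 exon bases with TBX3 on the opposite strand, and strand use in counting is not stated.

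ESRRB, an orphan nuclear receptor that sustains naive self-renewal (chromosome 12, 86361117 to 86521628, plus strand), was at 0.06 and 0.02 with siDhx30, and at 0.85 and 0.02 with siTfam. A single library, siTfam replicate 1, stood above the other values. TFCP2L1, a CP2-family factor downstream of LIF (chromosome 1, 118627945 to 118685168, plus strand), was at -0.24 and 0.03 with siDhx30, and at -1.14 and 1.71 with siTfam. Its siTfam replicates fell on opposite sides of NC with a gap of 2.85, larger than that of 99.6% of tested genes. NR5A2, a nuclear receptor that acts on pluripotency and endoderm genes (chromosome 1, 136842571 to 136960448, minus strand), was at 0.55 and 4.76 with siDhx30, and at 0.55 and -0.15 with siTfam. Its siDhx30 mean of 2.66 (SE 1.88; limma adjusted p = 0.998) was the highest of the markers but came from replicate 2, and without that library the value was 0.55. SALL4, a zinc finger factor of the core network (chromosome 2, 168748332 to 168767943, minus strand), was at 0.27 and -0.08 with siDhx30, and at 0.04 and -0.54 with siTfam, so that each siRNA had a library on either side of NC. TFCP2L1 shares 130 exon bases with Gm23497 on the same strand, and SALL4 shares 526 exon bases with Gm14261 on the opposite strand.

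The other naive markers with a row act in chromatin and in signalling. DPPA4, a chromatin-associated protein of pluripotent and early germ cells (chromosome 16, 48283733 to 48294237, plus strand), was above NC in every library, at 0.47 and 0.10 in siDhx30 and 0.26 and 0.24 in siTfam. Its means equalled 122% of NC (77.1% to 192%) and 119% (75.2% to 187%). TCL1, a co-activator of AKT kinase (chromosome 12, 105216750 to 105222793, minus strand), was at -0.93 and -0.31 with siDhx30, and at 0.06 and -0.39 with siTfam, with a siDhx30 mean of 64.9% of NC (31.3% to 135%). LIFR, the ligand-binding receptor subunit for LIF (chromosome 15, 7090614 to 7197489, plus strand), was at -0.03 and -0.13 with siDhx30, and at 0.14 and 0.24 with siTfam. It was the marker whose siDhx30 libraries were below NC while its siTfam libraries were above.

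**Figure D2:**
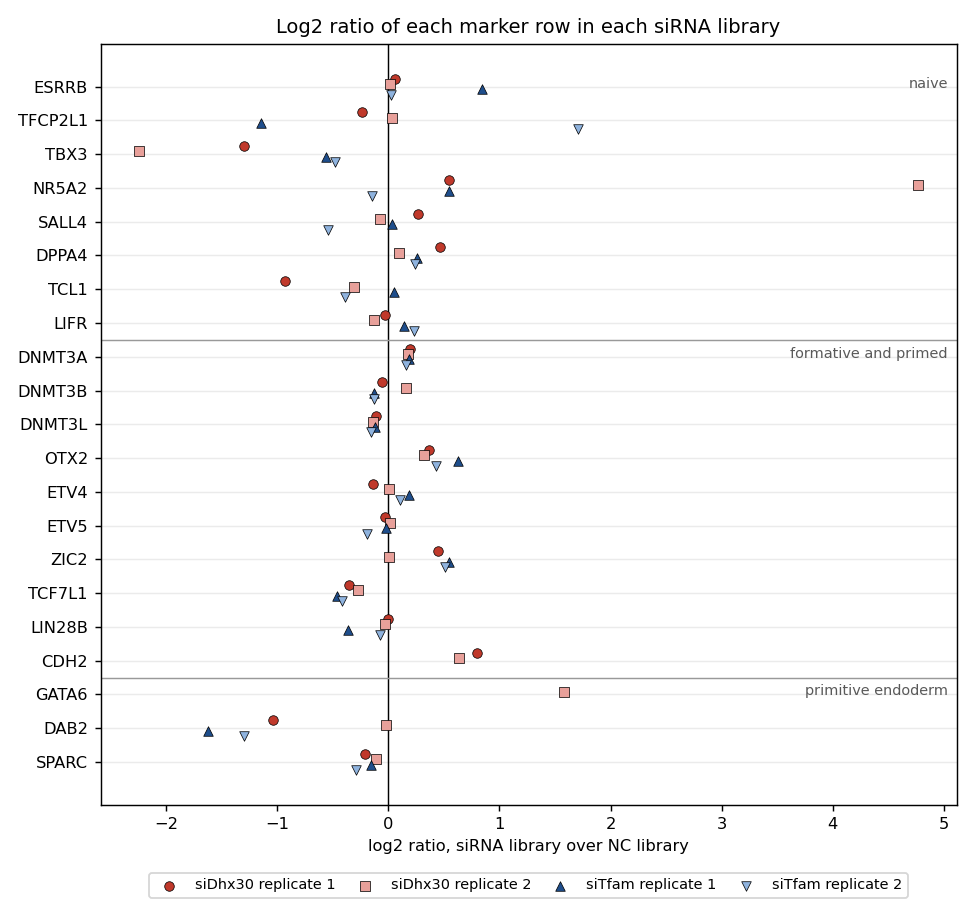
Log2 ratio of each siRNA library to the NC library (x axis) for the 21 markers with a row (y axis), grouped by state; circles and squares are siDhx30 replicates 1 and 2, up and down triangles siTfam replicates 1 and 2, and 0 is NC. NR5A2 reaches 4.76 in a single library, TBX3 is below 0 in all 4, and CDH2 and GATA6 have values in siDhx30 libraries alone.

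Formative and primed markers lay on both sides of NC. OTX2, the homeodomain factor that directs the formative enhancer programme (chromosome 14, 48657677 to 48673819, minus strand), was at 0.37 and 0.33 with siDhx30, and at 0.63 and 0.43 with siTfam. All libraries were above NC, with means of 127% of NC (86.9% to 186%; limma adjusted p = 0.998) and 144% (98.7% to 211%; limma adjusted p = 0.821). OTX2 shares 154 exon bases with Otx2os1 on the opposite strand and 168 with Gm49154 on the same strand. TCF7L1, the TCF repressor that restrains the naive network (chromosome 6, 72626378 to 72789254, minus strand), was below NC throughout, at -0.36 and -0.27 in siDhx30 and -0.46 and -0.42 in siTfam. Its means equalled 80.4% of NC (56.8% to 114%; limma adjusted p = 0.998) and 73.8% (52.2% to 104%; limma adjusted p = 0.855). TCF7L1 shares 179 exon bases with Gm15401 on the opposite strand. ZIC2, a zinc finger factor of primed cells (chromosome 14, 122475435 to 122479852, plus strand), was at 0.45 and 0.0041 with siDhx30, and at 0.54 and 0.51 with siTfam. The ETS factors of the FGF response lay nearer to NC: ETV4 (chromosome 11, 101769742 to 101785371, minus strand) was at -0.14 and 0.0089 with siDhx30, and at 0.19 and 0.10 with siTfam. ETV5 (chromosome 16, 22381309 to 22439719, minus strand) lay at -0.03, 0.02, -0.02 and -0.19 in the same order.

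The 3 genes of de novo DNA methylation had means between 91.0% and 114% of NC. DNMT3A, a catalytic methyltransferase (chromosome 12, 3806007 to 3914443, plus strand), was at 0.19 and 0.18 with siDhx30, and at 0.19 and 0.16 with siTfam. DNMT3L, the catalytically inactive partner (chromosome 10, 78041947 to 78063622, plus strand), lay at -0.11, -0.13, -0.12 and -0.16. DNMT3B, the other catalytic enzyme (chromosome 2, 153649450 to 153687730, plus strand), was at -0.06 and 0.16 with siDhx30, and at -0.13 and -0.12 with siTfam. Intervals for DNMT3A ran from 80.9% to 160% of NC in siDhx30 and from 80.3% to 159% in siTfam. They are not adjusted for the number of genes and are not limits of detection. Differences beyond those bounds also failed to pass, such as that of TBX3 at 29.3% of NC in siDhx30. DNMT3A shares 133 exon bases with Dnmt3aos, and DNMT3L shares 67 with Aire, both on the opposite strand. LIN28B, which blocks maturation of let-7 microRNAs (chromosome 10, 45376620 to 45486395, minus strand), was at -0.0053 and -0.03 with siDhx30, and at -0.36 and -0.07 with siTfam. CDH2, or N-cadherin, the adhesion protein gained as cells lose their epithelial state (chromosome 18, 16588877 to 16809246, minus strand), had values in siDhx30 alone and was not tested.

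Both primitive endoderm markers with complete values lay below NC in every library. DAB2, an endocytic adaptor of endoderm cells (chromosome 15, 6299788 to 6440712, plus strand), was at -1.04 and -0.02 with siDhx30, and at -1.62 and -1.30 with siTfam. The siTfam mean of -1.46 (SE 0.50, n = 2) equals 36.4% of NC, with a 95% interval of 13.8% to 95.9%, and 1.76% of tested genes lay lower. It did not pass over all genes (limma adjusted p = 0.804). DAB2 shares 211 exon bases with the pseudogene Gm18888 on the opposite strand. The siDhx30 mean of -0.53 (SE 0.50) came from replicate 1 and was -0.02 without it. SPARC, a secreted matrix protein of parietal endoderm that other cells also make (chromosome 11, 55394500 to 55423183, minus strand), was at -0.21 and -0.11 with siDhx30, and at -0.15 and -0.29 with siTfam. GATA6, the factor that specifies primitive endoderm (chromosome 18, 11052064 to 11085635, plus strand), had a value in siDhx30 replicate 2 alone. That value, 1.58, lay above NC, a side fixed by which genes the table kept. GATA6 shares 93 exon bases with 1010001N08Rik on the opposite strand. With GATA4, SOX17 and SOX7 lacking a row and GATA6 not tested, the values of DAB2 and SPARC describe those genes and not the number of endoderm cells.

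Counts of markers on 1 side of NC were read against the whole table. With the limma test at an adjusted p below 0.05, 0 of 19 markers and 0 of 12088 genes (0%) were called in siDhx30 against NC, in siTfam against NC, or in siDhx30 against siTfam. At an unadjusted p below 0.05, TBX3 was the 1 lower marker in siDhx30 against NC, where 2.47% of genes were lower and 2.56% higher at that level. DAB2 was the 1 lower marker in siTfam against NC, where 3.08% of genes were lower and 3.04% higher. In siDhx30, 6 of 19 markers lay above NC in both libraries (32.1% of all genes) and 8 below (34.9%). In siTfam, 7 of 19 lay above NC in both libraries (32% of all genes) and 8 below (34.4%). These shares are near those of the table, and nothing particular to the markers follows from them. Both comparisons use the same NC library.

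The 8 naive markers had a median log2 ratio of -0.02 in siDhx30 and 0.19 in siTfam, and the library medians were 0.02, -0.03, 0.10 and -0.07 in the order siDhx30 replicates 1 and 2, then siTfam replicates 1 and 2. Without siTfam replicate 1 the naive median in siTfam was -0.07. The 9 complete formative and primed markers had medians of -0.0044 and -0.10, with library medians of -0.03, 0.0089, -0.02 and -0.07. DAB2 and SPARC, the 2 complete primitive endoderm markers, had medians of -0.34 and -0.84, with library medians of -0.62, -0.07, -0.89 and -0.79. The same median over all genes was -0.01 in siDhx30 and -0.02 in siTfam.

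Set against each other, with no part for the NC library, the siRNAs had 2 libraries each. TBX3 was lower in siDhx30, by a log2 difference of -1.25 (SE 0.37; 95% interval -2.28 to -0.23), or 42.0% of the siTfam value, and it did not pass over all genes (limma adjusted p = 0.999). It was the marker at an unadjusted p below 0.05, where 1.5% of genes were lower and 1.29% higher. DAB2 was higher in siDhx30 by 0.93 (SE 0.41; -0.21 to 2.07), and NR5A2 by 2.46 (SE 1.53; -1.84 to 6.76). LIFR was lower by -0.27 (-0.69 to 0.15), OTX2 by -0.18 (-0.63 to 0.26) and ZIC2 by -0.30 (-0.89 to 0.30). DNMT3A, DNMT3L and DPPA4 differed by 0.01, 0.02 and 0.04, with intervals from -0.39 to 0.41, -0.39 to 0.42 and -0.50 to 0.57. Both siDhx30 libraries were above both siTfam libraries for NR5A2, DNMT3B, TCF7L1, LIN28B and DAB2, 5 of 19 markers against 14.7% of all genes. They were below for TBX3, LIFR, OTX2, ETV4 and ZIC2, again 5 of 19 against 14.3% of all genes. The nearest libraries of the siRNAs were 0.0021 apart for NR5A2, whose place in this count rests on that distance, between 0.043 (LIN28B) and 0.26 (DAB2) apart for 8 others, and 0.74 apart for TBX3.

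**Figure D3:**
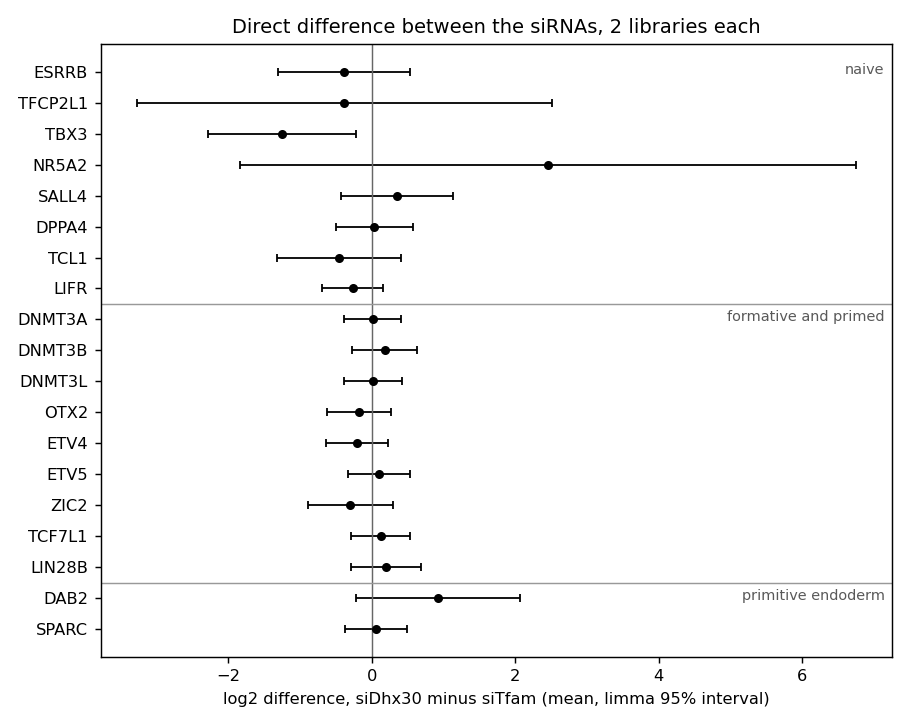
Log2 difference of siDhx30 minus siTfam (x axis) for the 19 markers with complete values (y axis); points are differences of 2-library means and bars are limma 95% intervals. The interval of TBX3, -2.28 to -0.23, is the one that does not include 0 before adjustment, and those of NR5A2 and TFCP2L1 are the widest.

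Markers differed in how far their replicates lay apart. The median gap between replicates over the naive markers was 0.36 in siDhx30 and 0.51 in siTfam, against 0.23 and 0.24 over all genes. Over the formative and primed markers it was 0.05 and 0.04. NR5A2 had a gap of 4.21 in siDhx30, larger than that of 99.96% of genes, and TBX3 one of 0.94 (92.4% of genes smaller). DNMT3A had gaps of 0.02 and 0.03, with 4.64% and 7.60% of genes smaller. Without levels or read totals the depth behind each ratio is unknown, and the part of low counts in these gaps was not tested.

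**Figure D4:**
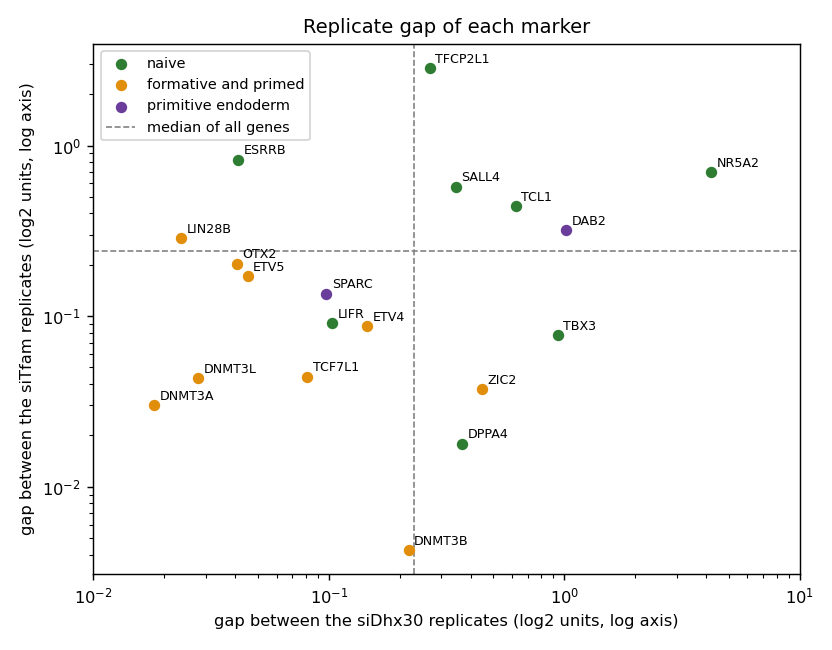
Absolute gap between the 2 siDhx30 replicates (x axis, log scale) and between the 2 siTfam replicates (y axis, log scale) for each of 19 markers; dashed lines are the medians of all genes, 0.23 and 0.24. DNMT3A and DNMT3L lie far inside both medians. NR5A2 (4.21 in siDhx30, 0.70 in siTfam) and TFCP2L1 (0.27 in siDhx30, 2.85 in siTfam) lie outside both. So do SALL4 (0.35 in siDhx30, 0.57 in siTfam), TCL1 (0.62 in siDhx30, 0.44 in siTfam) and DAB2 (1.02 in siDhx30, 0.32 in siTfam).

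Wider lists of the same pathways gave no called gene either: 0 genes passed the limma adjusted p of 0.05 in either direction, in any comparison and list, and the smallest adjusted p was 0.469. At an unadjusted p below 0.05 stood 2 of the 55 complete genes of these lists in siDhx30 against NC (CD24A and STRA6), where 5.04% of all genes did. In siTfam against NC 6 of 55 did (CD24A, STRA6, GDF3, COL4A2, AXIN2 and KRT7), against 6.11% of all genes. Between the siRNAs 2 of 55 did (FGF15 and AXIN2), against 2.79% of all genes. Of 28 other naive genes 18 had complete values, with 8 above and 10 below NC in siDhx30 and the same numbers in siTfam, and medians of -0.02 and -0.03. GDF3, a TGF-beta family ligand, lay at 0.37, 0.34, 0.50 and 0.58 (siDhx30 replicates 1 and 2, then siTfam replicates 1 and 2). SOCS3, the feedback inhibitor of LIF signalling, lay at -1.04, -1.12, -2.34 and -0.70 in that order. FBXO15 had a siDhx30 mean of -0.51 and TET2 one of 0.55, JARID2 had a siTfam mean of 0.31, and TFAP2C, PECAM1 and MYCN differed between the siRNAs by -0.32, -0.21 and -0.28.

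Of 23 other formative and primed genes 10 had complete values, 9 of them below NC in siDhx30 (median -0.19) and 8 in siTfam (median -0.18). Over the 12088 genes tested, 6269 lay below NC in siDhx30 and 6365 in siTfam. CD24A, a surface glycoprotein of the epiblast, lay at -1.73, -1.58, -1.93 and -2.58, with limma adjusted p of 0.673 in siDhx30 and 0.469 in siTfam. LEFTY1, the feedback inhibitor of Nodal signalling, lay at -0.93, -0.43, -0.84 and -0.39, and ZIC5 at -0.31, -0.22, -0.38 and -0.29. FGF15 was at -0.17 and -0.26 with siDhx30, and at 0.36 and 0.22 with siTfam. Of the genes named from the wider lists, CD24A had the lowest mean in each siRNA, and it did not pass.

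Of 27 other primitive endoderm genes 12 had complete values, with 9 above NC in siDhx30 (median 0.14) and 5 in siTfam (median -0.04). Over the 12088 genes tested, 5819 lay above NC in siDhx30 and 5723 in siTfam. The list had genes on both sides of NC with each siRNA, whereas the markers DAB2 and SPARC lay below it with each. STRA6, a retinol transporter, lay at 1.09, 1.13, 1.33 and 2.10, and FST, the Activin antagonist, at 0.61, 0.41, 0.50 and 0.53. COL4A2, a basement membrane collagen, lay at -0.79, -1.07, -1.05 and -2.21, and its partner COL4A1 differed between the siRNAs by 0.40. APOE had a siDhx30 mean of -0.38.

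Markers of other cell types that a culture in exit could hold were measured in part. In the streak and mesoderm list 2 of 16 names had values, where T and TBXT name the same gene. Of the 14 names without a row, 11 carry no non-coding transcript. AXIN2, a Wnt target, was at 0.15 and 0.14 with siDhx30, and at -0.50 and -0.49 with siTfam (direct difference 0.64, SE 0.14, limma adjusted p = 0.999). FOXH1 had siDhx30 and siTfam means of -0.04 and -0.09. In the neural list 4 of 12 had values, with siDhx30 and siTfam means of -0.57 and -0.07 for PAX6, -0.59 and -1.34 for NES, -0.01 and -0.40 for MSI1, and 0.15 and 0.54 for MAP2. In the trophoblast list 2 of 12 had values, with means of 1.05 and 1.14 for KRT7 and -0.44 and -0.31 for TFAP2A. No gene of the 2-cell-like list had a row. Of its 10 genes, 9 carry no non-coding transcript, so the absence of a row cannot be read as absence of expression. In the fibroblast and feeder list 7 of 20 had complete values, with medians of -0.15 and -0.08; COL5A2 had means of -1.30 and -0.57, COL1A2 a siDhx30 mean of -0.75, THY1 one of 0.69, and VIM and DCN siTfam means of 0.53 and -0.52. The share of such cells in the marker values was not tested, and ratios alone do not show whether any of these markers were at or near 0.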

How the data were processed

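RNA-seq was made from OG2 mouse embryonic stem cells, in 2 siDhx30, 2 siTfam and 1 NC library. The submitters' processing notes name DESeq2, featureCounts, HISAT2 and bcl2fastq, and GRCm38 as build; annotation, filter and strand use: not given in the sources used here. The values are log2 fold changes computed by the authors, per the file headers, with 1 column for each siRNA library. Headings spelled DHAX30 were read as DHX30. Without counts the depth is unknown.

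Signs were turned to siRNA over NC. Of 12930 rows, 12660 matched a GENCODE M21 symbol. The 12088 genes with 4 values were tested with limma 3.58.1 (R 4.3.3; robust=TRUE, no trend), NC entering as a column of 0 and being assumed to vary like the other libraries, which left 2 residual degrees of freedom. P-values were Benjamini-Hochberg adjusted over all genes. Intervals are limma 95% intervals. The test was checked on simulated data. Retained-intron and processed transcripts were counted from GENCODE M21. Tables and plots used Python 3.11.15, pandas 2.3.3 and matplotlib 3.10.9.

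The markers and lists were chosen with earlier results of these data known. Named genes were every marker with a row and, from each of 8 wider lists, the 3 with the smallest p in each comparison; 2-cell-like genes had none. Alternatives left out each siRNA library, kept genes with missing values, used robust=FALSE, centred each library, removed length and GC trends (11859 genes) or blocked on the replicate number.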

Additional observations from a re-analysis of the deposited data

Results flagged for a closer look

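CDH2 and GATA6 had values that none of the tests used, and these values lay above NC. CDH2 was at 0.79 in siDhx30 replicate 1 and 0.63 in siDhx30 replicate 2, with no value in either siTfam library. GATA6 was at 1.58 in siDhx30 replicate 2, with no value in the other 3 siRNA libraries. All 1574 values of genes with a missing value lay above NC once the signs were turned, so the side of NC was fixed by which genes the table kept. The difference between siDhx30 and siTfam in CDH2 was not tested, and the level in the libraries without a value is unknown.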

How the results depend on the processing

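With limma, 0 genes had an adjusted p below 0.05 in all 3 comparisons and under every alternative run; at an unadjusted p below 0.05 stood 310 higher and 299 lower genes in siDhx30 against NC, 367 and 372 in siTfam against NC, and 156 and 181 between the siRNAs, and over all genes the smallest adjusted p under any alternative was 0.266 (siTfam against NC, robust=FALSE), where the reported fit gave 0.285. Over the markers alone, the smallest adjusted p ranged from 0.411 (without siTfam replicate 1) to 0.886 (replicate block). Leaving out a library leaves 1 sample in its group, which is then assumed to vary like the others. Of 475 values of single markers under alternatives, 209 were the same by construction, such as siDhx30 against NC without a siTfam library, and of the 266 that could move 19 reversed. With length and GC trends removed, the formative and primed medians were 0.077 in siDhx30, -0.039 in siTfam and 0.061 between the siRNAs, DNMT3A between the siRNAs was -0.13, and ETV4 and ETV5 in siDhx30 were 0.077 and 0.035. ETV5 was 0.0057 after centring. The cause was not tested.

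Over the settings that leave out 1 library, the naive median ranged from -0.029 to 0.017 in siDhx30, from -0.065 to 0.19 in siTfam and from -0.30 to -0.10 between the siRNAs, and the formative and primed median in siTfam from -0.10 to -0.017. In siDhx30 against NC, TFCP2L1 ranged from -0.24 to 0.031, SALL4 from -0.076 to 0.27, DNMT3B from -0.056 to 0.16, ETV4 from -0.14 to 0.0089 and ETV5 from -0.027 to 0.018. In siTfam against NC, TFCP2L1 ranged from -1.14 to 1.71, NR5A2 from -0.15 to 0.55, SALL4 from -0.54 to 0.037 and TCL1 from -0.39 to 0.055. Between the siRNAs, ESRRB ranged from -0.81 to 0.019, TFCP2L1 from -1.81 to 1.04, DPPA4 from -0.15 to 0.22, DNMT3A from -0.0038 to 0.026, DNMT3L from -0.0049 to 0.038 and SPARC from -0.0060 to 0.13.

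With the replicate block between the siRNAs, 0 genes passed and the medians stayed at -0.33 (naive), 0.02 (formative and primed) and 0.50 (primitive endoderm). The labels share a number only, and deviations of same-numbered libraries correlated at 0.25 over genes. The block was not run against NC, which carries no number. Depth could not be assessed from ratios.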
